A study of Mus musculus with 6 samples.

Results

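The genes described here were the STAT transcription factors Stat2, Stat3, Stat4, Stat5a, Stat5b and Stat6 and the feedback inhibitors Socs1, Socs3 and Cish. They were taken as the rows of the gene and transcript tables whose Ensembl identifier maps to these symbols, which gave 9 of the 52550 genes and 50 of the 131146 transcripts. This sequencing compared activated T cells with and without a small molecule, labelled DMGV (dimethylguanidino valeric acid). Wild-type splenic CD3+ T cells of the mouse received an anti-CD3/CD28 activator in both groups and were taken at 24 h, without the compound (TCR alone, n = 3) or with it at 100 ng/ml (TCR+DMGV, n = 3). The labels name the compound DMGV, whereas the paper's legend for this sequencing experiment names LNY1 and gives this dose for it. The paper equates LNY1 with ADMA and SDMA, dimethylarginines that the enzyme AGXT2 converts to DMGV, so the names mean different compounds. Which of them was added cannot be told from these sources, and the group name here follows the labels. The paper describes the T cells as isolated by magnetic selection. The labels call the samples biological replicates and give no strain, age or sex, and no unstimulated sample was analysed here, so nothing below measures the effect of activation itself.

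Cytokines that bind receptors coupled to Janus kinases cause STAT proteins to be phosphorylated, to pair and to bind DNA. STAT5A and STAT5B carry the signals of interleukin 2 and related cytokines, STAT6 that of interleukin 4, STAT4 that of interleukin 12, STAT3 those of the interleukin 6, 10 and 21 type, and STAT2 joins IRF9 in the interferon-stimulated complex ISGF3. SOCS1, SOCS3 and CISH are SH2-domain proteins whose genes are switched on by STATs and which damp the same receptors, so their transcripts are commonly read as a gauge of STAT activity.

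The promoters of the 3 feedback genes are shown first because STAT dimers bind the palindrome TTCNNNGAA and ISGF3 and IRF factors bind repeats of GAAA. Each window runs from 250 bases before to 50 bases after the RefSeq start, 5′ to 3′ on the gene's strand (GRCm38.p6), and capitals mark TTCNNNGAA or a pair of GAAA with 2 bases between them, found on either strand. The windows are chr9:107296409-107296708 on the forward strand for Cish, chr11:117969317-117969616 on the reverse strand for Socs3 and chr16:10785487-10785786 on the reverse strand for Socs1.
Cish: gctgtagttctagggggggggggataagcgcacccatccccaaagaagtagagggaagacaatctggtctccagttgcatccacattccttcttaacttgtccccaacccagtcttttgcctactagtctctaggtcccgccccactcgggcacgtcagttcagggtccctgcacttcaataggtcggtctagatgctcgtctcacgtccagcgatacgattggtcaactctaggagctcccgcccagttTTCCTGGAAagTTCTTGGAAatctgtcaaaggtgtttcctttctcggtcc
Socs3: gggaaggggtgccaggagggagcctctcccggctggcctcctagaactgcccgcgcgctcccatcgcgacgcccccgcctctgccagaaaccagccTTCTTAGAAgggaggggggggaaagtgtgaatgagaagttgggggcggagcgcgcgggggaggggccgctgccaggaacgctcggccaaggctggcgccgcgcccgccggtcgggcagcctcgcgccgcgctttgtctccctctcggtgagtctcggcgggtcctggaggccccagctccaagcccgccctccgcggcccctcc
Socs1: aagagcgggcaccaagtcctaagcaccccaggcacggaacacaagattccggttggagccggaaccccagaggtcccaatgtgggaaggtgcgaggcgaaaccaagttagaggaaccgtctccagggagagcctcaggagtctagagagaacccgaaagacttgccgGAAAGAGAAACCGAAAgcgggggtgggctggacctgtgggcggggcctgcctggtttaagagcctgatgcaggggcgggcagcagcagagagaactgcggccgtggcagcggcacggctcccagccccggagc
The Cish window held 2 TTCNNNGAA matches at its bases 251 to 259 and 262 to 270, the Socs3 window held 1 at bases 97 to 105, and the Socs1 window held none but had 2 overlapping GAAA repeats over bases 168 to 183. Of 32851 promoter windows of this length in the RefSeq table, 8.3% held TTCNNNGAA at least once, 0.457% held it 2 or more times, and 3.44% held the GAAA repeat. Among the 12 windows of the 9 genes no other TTCNNNGAA was found, and the GAAA repeat also occurred in windows of Stat2 and Stat4. These are matches of letters, and binding was not measured.

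The libraries held 37758725 to 43718867 counts. Replicate 3 of TCR alone and replicate 1 of TCR+DMGV stood apart from the other 4 on the first principal component, which held 32.2% of the variance, with scores of 42.1 and 42.9 against −34.9 to −10.5. In these 2 samples counts rose with the GC content of the gene, by 0.24 and 0.17 log2 units per 10 percent of GC, against −0.17 to −0.03 in the others. Because each group holds 1 of them, each of the 9 genes is also given without both. The 6 T cell markers (Cd3d, Cd3e, Cd3g, Cd2, Cd5 and Lck) summed to 1843 to 2049 CPM (counts scaled to the size of the library) in TCR alone and 1998 to 2165 CPM in TCR+DMGV. The lists of B cell, macrophage and monocyte, and dendritic cell markers summed to between 7.23 and 11.1 CPM with overlapping groups, and Cd14 and Siglech were at 0. The 5 NK cell markers summed to 54.3 to 64.4 CPM in TCR alone and 61.6 to 74.5 CPM in TCR+DMGV. The erythroid markers summed to 2.39 to 3.18 CPM and 1.53 to 2.32 CPM, the only list whose groups did not overlap. The part of these cells in the results was not tested.

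All 9 genes were detected in every sample, and their levels per length spanned a wide range, as the plot of FPKM (fragments per length of transcript and per size of library) by gene shows. Socs1 was highest, at 74.2 ± 7.90 FPKM (SD, n = 6), and Stat6 followed at 62.6 ± 1.93 FPKM. Stat5a was at 45.7 ± 1.91, Stat4 at 44.5 ± 4.11, Stat5b at 35.5 ± 4.63 and Stat3 at 27.6 ± 0.97 FPKM. Cish at 12.2 ± 2.58 and Socs3 at 9.41 ± 1.27 FPKM lay below these STATs, and Stat2 was lowest at 2.22 ± 0.23 FPKM, 33.5-fold under Socs1. Of the neighbours in this order, 4 pairs had ranges that did not overlap: Stat6 from Stat5a, Stat4 from Stat5b, Stat3 from Cish, and Socs3 from Stat2. Socs1 exceeded Stat6 within each of the 6 samples, but their ranges overlapped. Stat5a exceeded Stat4 in 3 of 6 samples, Stat5b exceeded Stat3 in 5 of 6 and Cish exceeded Socs3 in 5 of 6, so these neighbours were not separated.

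**Figure D1:**
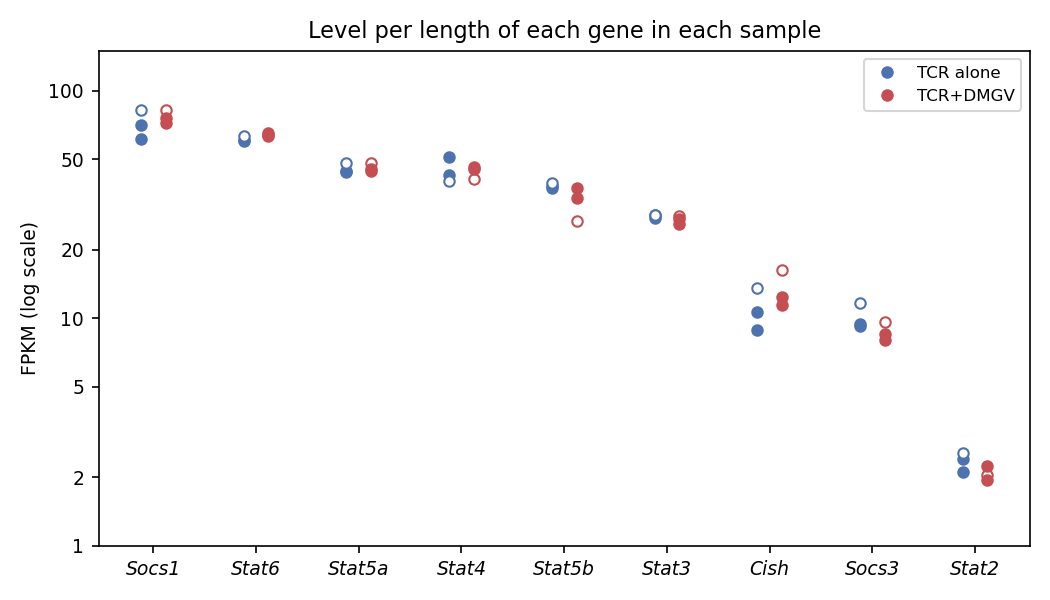
FPKM of each gene (log axis) in each of the 6 samples, TCR alone in blue and TCR+DMGV in red, with open circles for the 2 samples that stood apart. Socs1 and Stat6 lie at 60.1 to 82.6 FPKM in every sample and Stat2 at 1.94 to 2.55 FPKM.

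The place of a gene in this order depends on the length the authors' tables used. The Socs1 counts and FPKM imply a model of about 1222 bases, whereas GENCODE M21 gives its only transcript 2785 bases, so on the longer model the level of Socs1 would be lower. When the FPKM of a gene's transcripts were summed instead, an order chosen after seeing the data, Stat5a came first at 95.8 ± 4.59 (SD, n = 6), Stat6, Stat3 and Socs1 followed at 75.3, 74.6 and 74.2, and Cish, Socs3 and Stat2 kept the last 3 places.

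None of the 9 genes passed the threshold between TCR+DMGV and TCR alone. With edgeR's quasi-likelihood test and Benjamini-Hochberg adjustment over all 14786 genes tested, 0 of 9 had an adjusted p under 0.05, against 2 genes or 0.0135% of all. At an unadjusted p under 0.05 the count was again 0 of 9, against 3.19% of all genes, and DESeq2 likewise gave 0 of 9 by adjusted p, beside 0.072% of all genes, and 0 of 9 by unadjusted p. In bulk RNA, fewer cells of a type and less RNA per cell cannot be told apart. Of the 9 estimates 5 were above 0 and 4 below, with a median log2 fold change of 0.00 beside 0.00 over all genes tested. The largest was 0.29 on the log2 scale (Cish), and the widest 95% interval reached 0.70, so changes beyond 1.62-fold lay outside the interval of every gene. The adjusted p was 0.999 for each of the 9 genes, and the estimates below are log2 fold changes of TCR+DMGV over TCR alone from this fit.

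**Figure D2:**
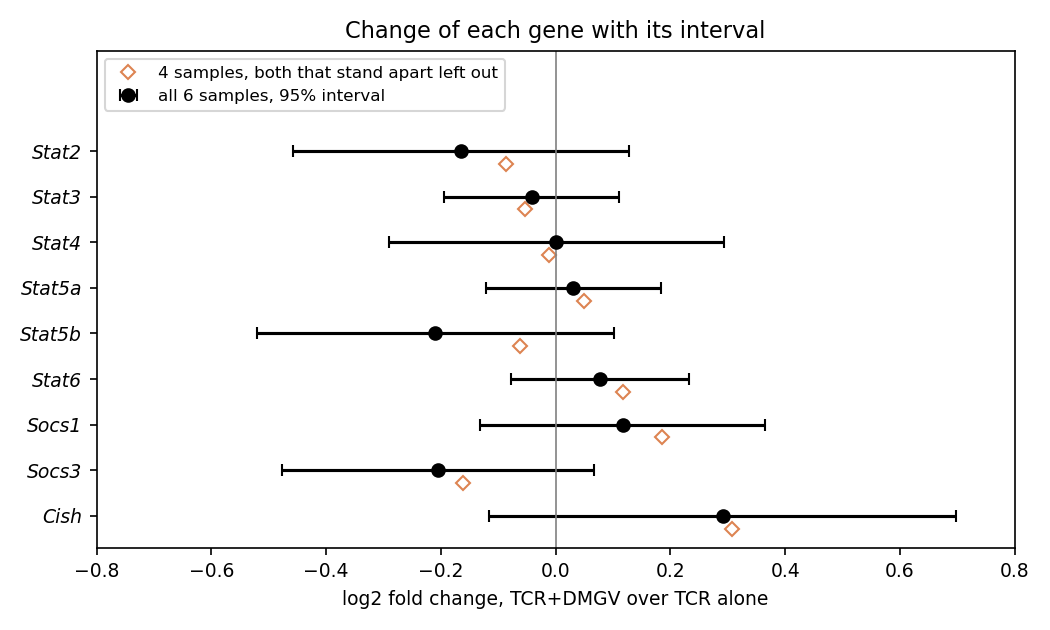
Log2 fold change of each gene, TCR+DMGV over TCR alone, from edgeR on all 6 samples with its 95% interval (black), and the same estimate with both samples that stood apart left out (open diamonds). Every interval includes 0.

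Stat5a and Stat5b, neighbouring genes that code for closely related proteins, differed in how steady they were. Stat5a (chr11:100859351-100885169, forward strand, GRCm38) had 351, 360 and 377 CPM in TCR alone and 378, 370 and 364 CPM in TCR+DMGV. The groups overlapped within a narrow band, and the estimate was 0.03 ± 0.06 (SE, 95% interval −0.12 to 0.18). It was 0.05 without both samples that stood apart and ran from −0.01 (without replicate 1 of TCR alone) to 0.07 (without replicate 3 of TCR alone) with 1 library left out. Stat5b (chr11:100780731-100850724, reverse strand) had 230, 242 and 240 CPM in TCR alone and 164, 236 and 216 CPM in TCR+DMGV. A single library, replicate 1 of TCR+DMGV, was far below the other 5. The estimate for Stat5b was −0.21 ± 0.13 (SE, 95% interval −0.52 to 0.10). It was −0.07 without that library, −0.06 without both samples that stood apart and −0.32 without replicate 2 of TCR+DMGV.

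The ratio of Stat5b to Stat5a counts, taken within each sample, was 0.654, 0.672 and 0.635 in TCR alone and 0.434, 0.638 and 0.591 in TCR+DMGV. The SD of the 3 samples of TCR alone was 0.0187, and replicate 1 of TCR+DMGV again gave the lowest value. The mean log2 ratio was lower in TCR+DMGV by −0.26 (two-sided exact permutation test, p = 0.2, n = 3 per group, where 0.1 is the smallest p possible), and by −0.09 without that library.

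Stat6, the transducer of interleukin 4, was the only gene of the 9 whose groups did not overlap in CPM. Stat6 (chr10:127642986-127660957, forward strand) had 295, 305 and 305 CPM in TCR alone and 306, 320 and 329 CPM in TCR+DMGV. The lowest treated sample and the highest control differed by under 1 CPM. The estimate was 0.08 ± 0.07 (SE, 95% interval −0.08 to 0.23), and the ratio of the means was 1.05. It was 0.12 without both samples that stood apart and 0.04 without replicate 1 of TCR alone. Over all genes tested 8.86% did not overlap between groups, and 4.92% did so with TCR+DMGV higher and 3.94% with it lower, beside 1 and 0 of the 9 here. Stat6 overlaps the gene Nab2 (54.3 to 70.6 CPM), and whether counting used the strand is not stated. Nab2 had an estimate of 0.18 ± 0.10 (SE, adjusted p = 0.999 by edgeR), of the same sign as that of Stat6. The part of Nab2 reads in the Stat6 counts was not tested.

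Stat3 and Stat4 differed between groups by no more than their replicates did. Stat3 (chr11:100885098-100939540, reverse strand), which overlaps the 3′ end of Stat5a, had 293, 310 and 298 CPM in TCR alone and 295, 297 and 284 CPM in TCR+DMGV (−0.04 ± 0.06, SE). Without both samples that stood apart the Stat3 estimate was −0.05, and with 1 library left out it ran from −0.08 (without replicate 1 of TCR alone) to −0.02 (without replicate 2 of TCR alone). Stat4 (chr1:51987148-52107189, forward strand), the transducer of interleukin 12, had 184, 228 and 171 CPM in TCR alone and 175, 205 and 202 CPM in TCR+DMGV. Its lowest value in each group came from the samples that stood apart, and its estimate was 0.00 ± 0.12 (SE), or −0.01 without both. The 95% interval of Stat4 ran from a ratio of 0.818 to 1.22, wider than the 0.874 to 1.08 of Stat3.

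Stat2 was by far the least abundant STAT, with 533 to 692 counts per library. Stat2 (chr10:128270559-128292849, forward strand) had 14.0, 16.4 and 16.7 CPM in TCR alone and 13.4, 13.2 and 15.4 CPM in TCR+DMGV. Of the treated samples 2 were below every control, and the third lay among the controls. The estimate was −0.17 ± 0.12 (SE, 95% interval −0.46 to 0.13), −0.09 without both samples that stood apart and −0.26 without replicate 1 of TCR alone.

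**Figure D3:**
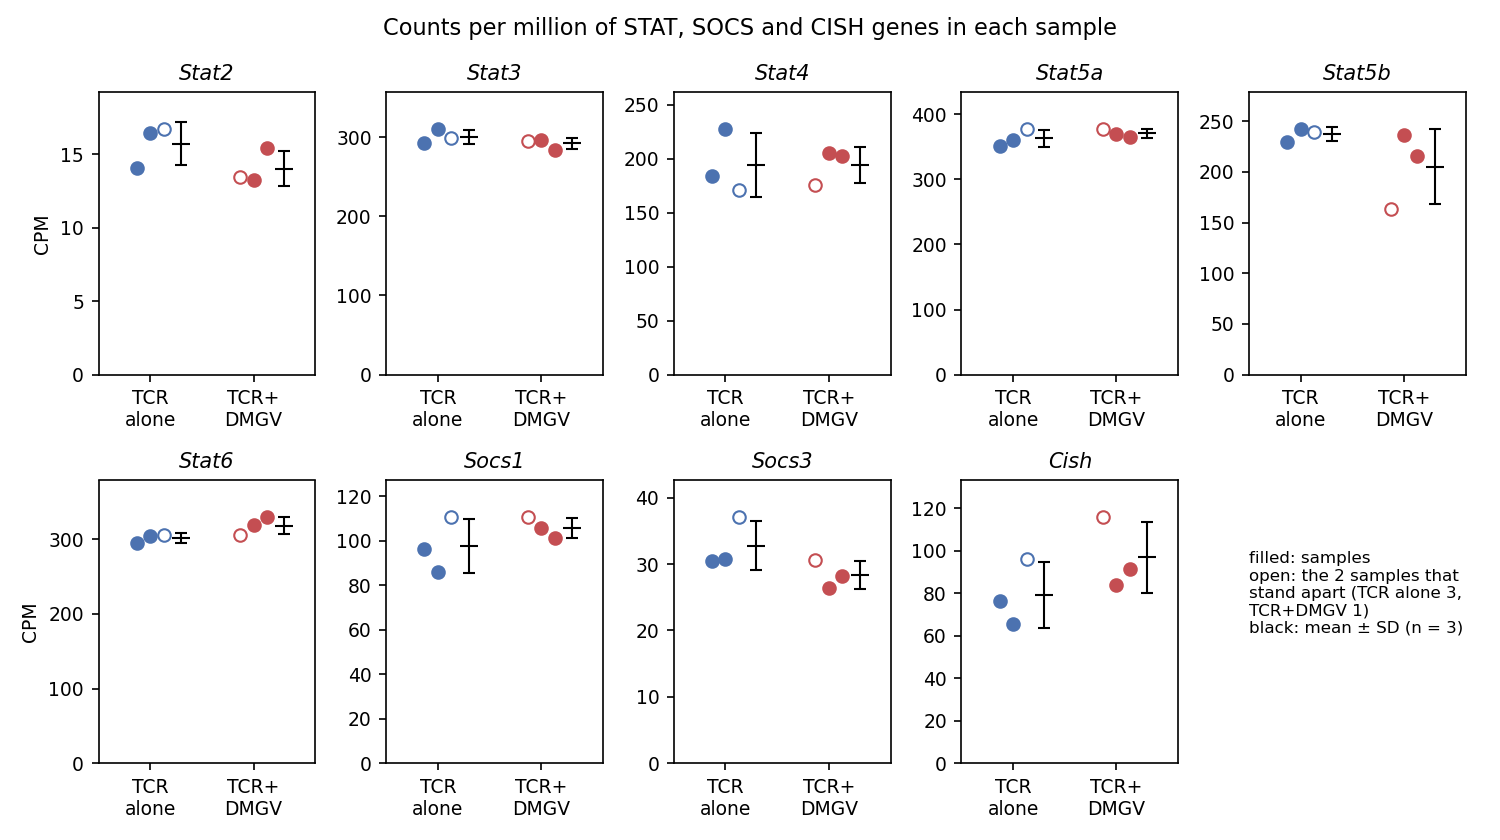
CPM of each gene (axes from 0) in TCR alone (blue) and TCR+DMGV (red), with the mean ± SD of 3 samples in black and open circles for the 2 samples that stood apart. The groups overlap for every gene except Stat6, and the open circles of Stat5a, Socs1, Socs3 and Cish are the highest of their groups.

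Among the feedback inhibitors, Cish had the largest estimate of the 9 genes and that of Socs3 had the opposite sign. Cish (chr9:107296026-107302784, forward strand), whose protein binds activated receptors at STAT5 docking sites, had 76.3, 65.5 and 96.1 CPM in TCR alone and 116, 83.9 and 91.4 CPM in TCR+DMGV. The groups overlapped, because replicate 3 of TCR alone was above 2 of the treated samples. The means were 79.3 ± 15.5 and 97.0 ± 16.7 CPM (SD, n = 3 each), a ratio of 1.22, and the estimate was 0.29 ± 0.17 (SE, 95% interval −0.12 to 0.70).

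The 2 samples that stood apart held the highest Cish values of their groups, and Cish transcripts have a GC content of 55.4%. The same order held for Stat5a, Socs1 and Socs3, with GC contents of 55.9%, 58.5% and 58.8%. It did not hold for the remaining genes, at 45.4% (Stat4) to 54.1% (Stat5b). Between those 2 samples the log2 ratio of Cish, TCR+DMGV over TCR alone, was 0.27. Among the other 4 it was 0.31. On all 6 samples the unadjusted p of Cish by edgeR was 0.136. Without both, the edgeR estimate was 0.31 ± 0.12 (SE, unadjusted p = 0.0348, adjusted p = 0.733), and with a term for them, added after seeing the data, 0.29 ± 0.09 (SE, unadjusted p = 0.0104, adjusted p = 0.906). An alternative that removed a trend with GC content from each library was also added after seeing the data. It gave 0.26 ± 0.14 (SE, unadjusted p = 0.108 by edgeR). A single library moved the Cish estimate further: it was 0.14 without replicate 1 of TCR+DMGV, 0.17 without replicate 2 of TCR alone and 0.46 without replicate 3 of TCR alone.

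The antisense gene Gm17041 lies within the last exon of Cish and had 67.8 to 77.4 CPM, close to the level of Cish itself. Without stated strand use, reads of these genes cannot be told apart. Gm17041 had an estimate of 0.06 ± 0.08 (SE, adjusted p = 0.999 by edgeR). The sum of Cish and Gm17041, taken after seeing the data, was 150, 133 and 169 CPM in TCR alone and 193, 155 and 167 CPM in TCR+DMGV. These overlapped, with a ratio of means of 1.14 (two-sided exact permutation test, p = 0.3).

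Socs1, whose protein inhibits Janus kinases directly, had 96.4, 85.9 and 110 CPM in TCR alone and 110, 106 and 101 CPM in TCR+DMGV (chr16:10782240-10785536, reverse strand). The 3 treated samples lay above the other 2 controls and at or below replicate 3 of TCR alone. The estimate was 0.12 ± 0.11 (SE, 95% interval −0.13 to 0.36). Between the samples that stood apart the log2 ratio of Socs1 was −0.00, and among the other 4 it was 0.18. Without replicate 3 of TCR alone the estimate was 0.22 (unadjusted p = 0.0496, adjusted p = 0.649), without replicate 1 of TCR+DMGV 0.08, and without replicate 2 of TCR alone 0.03. Without both samples that stood apart it was 0.19 (unadjusted p = 0.109 by edgeR).

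Socs3, the inhibitor of gp130-type receptors, had 30.5, 30.7 and 37.0 CPM in TCR alone and 30.6, 26.4 and 28.3 CPM in TCR+DMGV (chr11:117966079-117970047, reverse strand). Of the treated samples 2 lay below every control, and the third, replicate 1, lay between them. The estimate was −0.21 ± 0.12 (SE), with a 95% interval from a ratio of 0.719 to 1.05. Between the samples that stood apart the log2 ratio of Socs3 was −0.28, and among the other 4 it was −0.16. The edgeR estimate without both was likewise −0.16 (unadjusted p = 0.203), and on all 6 samples the unadjusted p was 0.117. With a term for those 2 samples, added after seeing the data, it was −0.20 ± 0.09 (SE, unadjusted p = 0.0537). After a trend with GC content was removed from each library, an alternative added after seeing the data, the estimate was −0.24 ± 0.09 (SE, unadjusted p = 0.0299, adjusted p = 0.999). Without replicate 3 of TCR alone it was −0.10.

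Profiles over the samples were compared with those of 102 tested genes for each inhibitor, made up of the other 8 members and the 94 tested genes of the lists described below. The profile nearest to that of Socs1 was Pias4, with a root mean square difference of 0.05 log2 units over 6 samples. The nearest to Socs3 was Il4ra at 0.07, and the nearest to Cish was Sh2b3 at 0.09. The median over those genes was 0.18, 0.21 and 0.27 in the same order, and the spread of each inhibitor about its own mean was 0.13, 0.15 and 0.26. Each nearest gene was picked as the smallest of 102 differences, so it lies under the median by construction. Shared regulation was not tested.

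Transcripts were compared next, since the STATs are made in more than 1 form. Of the 50 transcripts of these genes 33 passed the filter on low counts, and 16 held at least 10% of their gene's counts. A single transcript held 94.7% of Stat2 counts, 98.8% of Stat4, 99.2% of Stat6, 98.7% of Socs3 and 100% of Socs1, so only Stat3, Stat5a, Stat5b and Cish had shares to compare. In edgeR 0 of 33 passed an adjusted p of 0.05 beside 0.0% of the 38401 transcripts tested, and 1 of 33 had an unadjusted p under 0.05 beside 3.22% of all. DESeq2 gave 0 of 43 member transcripts with an adjusted p, beside 0.788% of all, and 0 of 50 by unadjusted p, beside 4.17% of all.

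Stat3 was divided among 3 coding transcripts. Stat3-203 codes for 770 residues, Stat3-201 for 769, lacking codon 701, and Stat3-202 for 722. In Stat3-202 the coding sequence skips 50 bases, departs at codon 716 and ends after 8 codons, the stop included, which is the form known as STAT3β, a shorter protein without the C-terminal transactivation domain. The sequences below, from GENCODE M21 transcripts, show the last 30 shared coding bases in lower case and the following coding bases in capitals.
Stat3-203: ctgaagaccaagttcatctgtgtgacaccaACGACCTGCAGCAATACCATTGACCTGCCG
Stat3-202: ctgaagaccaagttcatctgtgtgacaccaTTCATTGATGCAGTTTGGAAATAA
The codon by which Stat3-203 and Stat3-201 differ is in capitals in the first of these lines and absent from the second.
Stat3-203: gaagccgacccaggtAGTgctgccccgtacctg
Stat3-201: gaagccgacccaggtgctgccccgtacctg

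Stat3-202 held 7.90%, 11.9% and 11.9% of the Stat3 total without the compound, against 22.5%, 11.4% and 14.5% with it. Replicate 1 of TCR+DMGV had the highest share, and another treated sample lay below 2 controls. The mean share was 10.6% ± 2.31 against 16.1% ± 5.74 (SD, n = 3 each, two-sided exact permutation test, p = 0.3, adjusted over 11 shares 0.733). Stat3-201 held 49.5%, 54.9% and 46.9% in TCR alone and 44.9%, 45.9% and 45.0% in TCR+DMGV, which did not overlap (exact permutation p = 0.1, the smallest possible, adjusted p = 0.367). Stat3-203 held 37.8% ± 4.87 and 37.5% ± 5.29 (SD, n = 3 each).

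Cish was likewise divided among 3 transcripts, and its full-length coding form was the only transcript of the 9 genes with an unadjusted p under 0.05. Cish-201 codes for 257 residues. Cish-204 lacks the middle exon of Cish-201 and has an open frame of 62 codons, and Cish-202 is annotated as a transcript without a coding sequence that keeps 2744 of the 2889 bases of the first intron of Cish-201. The Cish-201 counts were 1436, 1292 and 1734 without the compound, against 2886, 2032 and 1832 with it. Scaled to library size, every treated sample was above every control. Stat3-201 and Stat5b-202 also did not overlap in counts scaled this way, with every treated sample below every control. How often transcript counts separate in this way over all transcripts was not tested. The estimate for Cish-201 was 0.51 ± 0.20 (SE, unadjusted p = 0.0452, adjusted p = 1.00 by edgeR).

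As a share of Cish counts, Cish-201 made up 49.5%, 48.3% and 43.6% in TCR alone and 56.0%, 56.3% and 50.6% in TCR+DMGV. Cish-202, which holds part of the first intron, made up 25.4%, 32.5% and 26.2% in TCR alone and 20.6%, 21.5% and 19.99% in TCR+DMGV. Neither share overlapped between groups, and the differences of 7.13 and −7.33 percentage points were larger than the SDs of 0.736 to 3.88. Each had an exact permutation p of 0.1, the smallest that 3 against 3 allows, and an adjusted p of 0.367. Both shares are parts of the same total, so they are not separate results. Cish-204 held 24.5% ± 5.74 and 24.8% ± 3.84 (SD, n = 3 each).

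Of the 11 shares compared, 3 did not overlap between groups. Over all 2809 transcripts that held 10% to 90% of a gene with as many counts, 8.33% did not overlap. When shares were taken of summed FPKM, Cish-201 overlapped (57.7% against 51.3% on average), and Stat3-201 and Cish-202 still did not.

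The transcripts of Stat5a and Stat5b showed how uncertain such splits can be. The Stat5a transcript Stat5a-202 ran from 68 to 5159 counts over samples in which the Stat5a total changed little, with shares of 7.45%, 35.1% and 4.13% in TCR alone and 15.5%, 0.43% and 19.3% in TCR+DMGV. The ranges of the groups overlapped. Stat5a-201 and Stat5a-203 held 49.8% and 32.0% of all Stat5a counts. Stat5b-201 and Stat5b-202, which code for the same length of 786 residues, held 51.8% ± 3.88 and 47.6% ± 3.99 in TCR alone and 55.3% ± 4.21 and 43.98% ± 4.19 in TCR+DMGV (SD, n = 3 each). Both Stat5b transcripts had their lowest library-scaled counts in TCR+DMGV replicate 1.

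**Figure D4:**
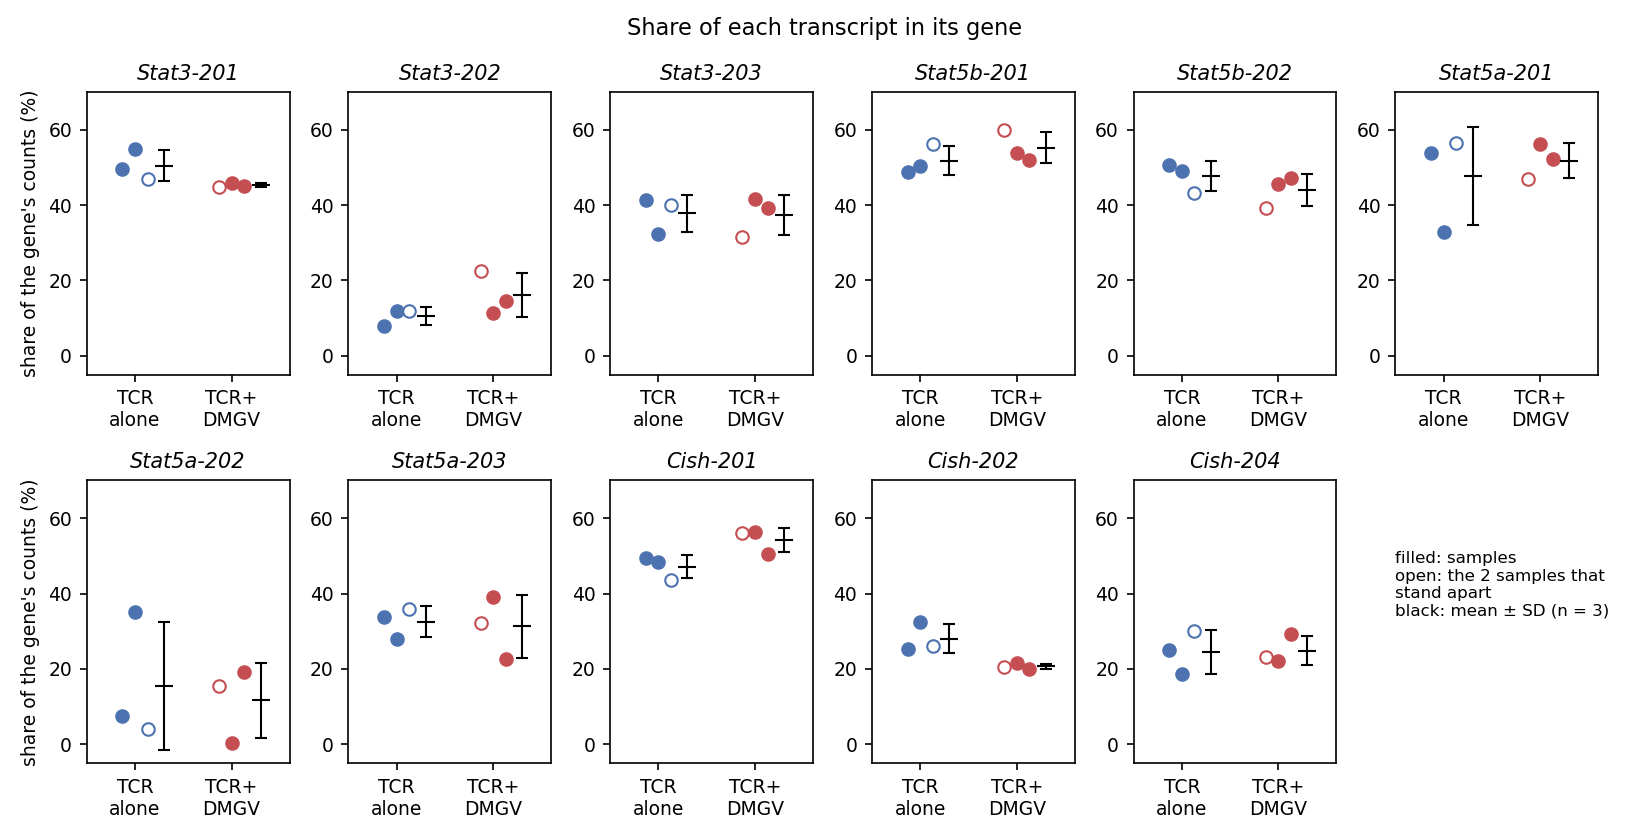
Share of each transcript in its gene's counts, in percent, for the 11 transcripts that hold 10% to 90% of Stat3, Stat5a, Stat5b or Cish, with samples as circles (open for the 2 that stood apart) and mean ± SD of 3 in black. The groups do not overlap for Stat3-201, Cish-201 and Cish-202, and Stat5a-202 ranges from 0.43% to 35.1%.

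The genes around the STATs were read from lists of kinases, inhibitors, receptors, ligands and targets. Of 101 other listed genes 94 were tested, and 0 passed an adjusted p of 0.05 in edgeR. The adjusted p was 0.999 for each. By unadjusted p under 0.05, 3 were higher and 2 lower in TCR+DMGV, together 5 of 94 beside 3.19% of all genes. The groups did not overlap for 10 of 94, beside 8.86% of all. The median log2 fold change was 0.02, beside 0.00 over all genes tested. Without both samples that stood apart 1 of them, Ccnd3, passed. In that fit the genes named below kept their sign except Jak3, at 0.03. Those named whose unadjusted p was then under 0.05, beside Ccnd3, were Ahr at −0.66, Il12rb2 at −0.27, Il24 at −1.36, Irf7 at 0.69, Jak2 at −0.31 and Junb at 0.23, with adjusted p of 0.667 or more. The share of all genes under 0.05 in that fit was not taken, so whether these genes exceed it cannot be told.

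The upstream parts of the pathway were close to level. The 4 Janus kinases had a median of −0.02, and the smallest p fell to Jak2 (−0.24 ± 0.24, SE) and Jak3 (−0.04 ± 0.09, SE). The 5 other SOCS genes had a median of −0.01, with Socs5 at −0.17 and Socs6 at 0.26. Of 11 phosphatase and PIAS genes, Ptpn6, which codes for the phosphatase SHP-1, had 319, 366 and 346 CPM in TCR alone and 370, 368 and 390 CPM in TCR+DMGV. Its groups did not overlap, and its estimate was 0.13 ± 0.08 (SE). Pias4, a SUMO ligase, had an estimate of 0.10.

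Of 18 receptor genes tested 6 were above 0 and 12 below, with a median of −0.02. The interleukin 12 receptor chains had the smallest p and opposite signs, with Il12rb2 at −0.20 ± 0.11 and Il12rb1 at 0.11 ± 0.07 (SE). Of 13 ligand genes tested 10 were above 0 and 3 below, with a median of 0.08. Il10, which codes for 1 of the interleukins that signal through STAT3, had 4.45, 4.95 and 4.47 CPM in TCR alone and 2.67, 3.04 and 3.61 CPM in TCR+DMGV. Every treated sample was below every control, at −0.57 ± 0.18 (SE, unadjusted p = 0.0157). Il9 was detected at 17 to 71 counts, with an estimate of 0.85 ± 0.45 (SE).

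Of 15 STAT5 targets 11 were above 0 and 4 below, with a median of 0.06. Ccnd3, which codes for cyclin D3, had the smallest p of them in the fit on all samples (0.59 ± 0.39, SE). Its values were 43.9, 50.8 and 132 CPM in TCR alone and 103, 125 and 112 CPM in TCR+DMGV, so that replicate 3 of TCR alone was above every treated sample while the other controls were far below. Without both samples that stood apart its estimate was 1.32 ± 0.12 (SE, adjusted p = 0.0375 by edgeR), the only listed gene to pass in any setting run. Tnfrsf9, which codes for 4-1BB, had an estimate of 0.13 ± 0.09 (SE).

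Among 12 STAT3 targets the median was 0.06. Ahr, the aryl hydrocarbon receptor, had 6.63, 6.81 and 7.59 CPM in TCR alone and 6.13, 5.06 and 3.41 CPM in TCR+DMGV. Its groups did not overlap (−0.53 ± 0.23, SE), and Junb had an estimate of 0.17 ± 0.10. The 6 STAT4 targets tested had a median of −0.01, with Il12rb2 as above and Ifng at 0.12 ± 0.13 (SE).

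Of 7 STAT6 targets 3 were above 0 and 4 below, with a median of −0.09. Il24, a cytokine of the interleukin 10 family, had 4.50, 2.82 and 4.03 CPM in TCR alone and 2.00, 1.46 and 1.39 CPM in TCR+DMGV. Every treated sample was below every control. The estimate of −1.22 ± 0.26 (SE, unadjusted p = 0.00223, adjusted p = 0.999 by edgeR) was the lowest of all listed genes, on 55 to 171 counts. Nfil3 had an estimate of −0.14 ± 0.09 (SE).

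Of 12 tested targets of STAT2 in ISGF3, 7 were above 0 and 5 below, with the highest median of the lists at 0.13. Irf7, which codes for an interferon regulatory factor, had 2.55, 2.35 and 3.29 CPM in TCR alone and 4.34, 3.90 and 4.01 CPM in TCR+DMGV (0.58 ± 0.20, SE, unadjusted p = 0.0204). Usp18, which codes for a protease that removes ISG15, had 24.5, 26.5 and 26.8 CPM in TCR alone and 32.9, 30.6 and 29.9 CPM in TCR+DMGV (0.26 ± 0.09, SE, unadjusted p = 0.0227). For both genes every treated sample was above every control, and Ifit1, named after its values were seen, showed the same order (0.53 ± 0.20, SE, unadjusted p = 0.032). Mx1, Oas1a and Isg15 of the same list, named after their values were seen, had estimates of −0.36, −0.32 and −0.25. Thus 3 of 12 did not overlap with TCR+DMGV higher, beside 4.92% of all genes, while Stat2 itself was at −0.17.

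**Figure D5:**
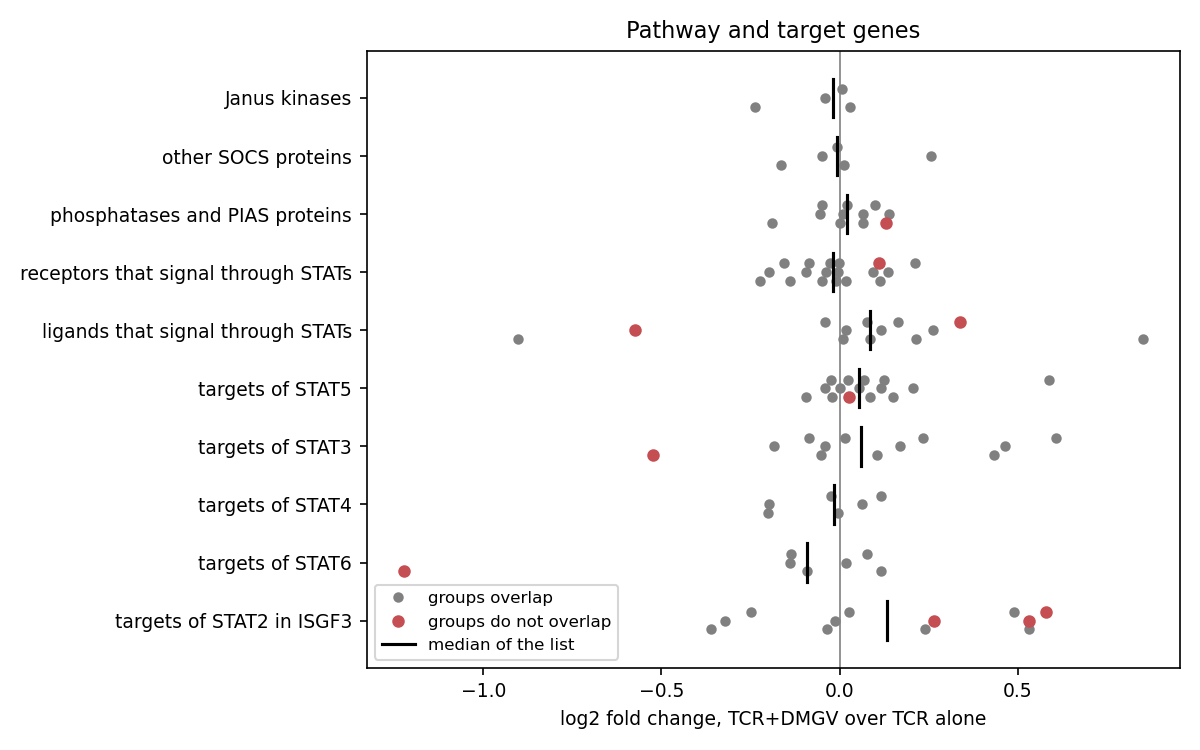
Log2 fold change (TCR+DMGV over TCR alone, edgeR, 6 samples) of each tested gene by list, with genes whose groups did not overlap in red and the median of each list as a black bar. List medians lie between −0.09 and 0.13, and Il24 is the lowest point at −1.22.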

How the data were processed

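RNA of 6 samples, 3 per group, was sequenced as mRNA libraries. Per the paper's methods, the authors used SOAPnuke 1.5.2 to filter the reads, HISAT2 2.0.4 to align and StringTie 1.2.3 to quantify. The submitters' processing notes name the build mm9. The deposited counts are whole numbers per gene and transcript, not normalized. The step that made counts and its use of strand are not given in the sources used here. The authors also deposited FPKM, scaled to length and library. Identifiers without version matched GENCODE M21 (GRCm38) for 99.7% of genes, and coordinates and symbols come from it. Since the stated build differs, coordinates describe that annotation, not the authors' alignment. Promoters come from RefSeq (GRCm38.p6), which matched all 9 genes.

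Gene counts were tested with edgeR 4.0.16 (quasi-likelihood, TMM, default filter for low counts, two-sided, Benjamini-Hochberg, threshold 0.05) in R 4.3.3, over 14786 genes and 38401 transcripts. CPM are TMM-scaled. Intervals are 95% t intervals of the fit. P-values set the difference between groups against the spread among these samples. Shares of transcripts holding at least 10% of a gene and the Stat5b to Stat5a ratio were compared by two-sided exact permutation of sample means (scipy 1.17.1). Alternatives were DESeq2 1.42.0, other scalings, no filter, summed transcript counts, limma 3.58.1 on log2(FPKM + 1) and log2(FPKM + 0.1), each sample left out, both samples that stood apart left out, and a replicate block. The scripts were tested on simulated data.

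The members and lists were chosen with earlier results of these data known. Genes named were all 9 members, the 2 of smallest p per list with any past the threshold, and, for Socs1, Socs3 and Cish, the listed gene of smallest root mean square difference of log2 CPM. Genes of lists under the filter (7 of 101) were left out of tests.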

Additional observations from a re-analysis of the deposited data

How the results depend on the processing

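In every one of the 17 alternatives no member gene passed, and no member transcript passed in any alternative run on transcripts. Stat2, Stat3, Stat5b, Stat6, Socs1, Socs3 and Cish kept their sign in all 17. Stat4, near 0 with all samples, turned slightly below 0 with DESeq2 size factors (−0.0057), library size alone (−0.012), DESeq2 (−0.0045), log2(FPKM + 1) (−0.0075), log2(FPKM + 0.1) (−0.0076) and without both samples that stood apart (−0.011). It ran from −0.077 to 0.13 with 1 sample left out. Stat5a was −0.0034 with the GC trend removed and ran from −0.0093 to 0.065 with 1 sample left out. The number of all genes past the threshold, 2 in the fit reported, was 14 by DESeq2, 12 without both samples that stood apart, 6 at an adjusted p under 0.10, 1 with library size alone, with no filter and with the GC trend removed, 0 by both limma fits, and 0 to 5 with 1 sample left out (5 without replicate 1 of TCR+DMGV, 0 without each sample of TCR alone or without replicate 2 of TCR+DMGV). Of the other listed genes 1, Ccnd3, passed without both samples that stood apart. For transcripts DESeq2 called 400 of all, against 0 by edgeR, and 0 to 1 were called with 1 sample left out (1 without replicate 3 of TCR alone). Between 3 and 5 of the 11 shares did not overlap with 1 sample left out, the highest without replicate 3 of TCR alone. Groups with fewer samples separate more readily, and the rate over all transcripts in these settings was not tested. The difference in share of Stat3-203 was 0.68 percentage points and that of Cish-204 −0.30 on summed FPKM. With 1 sample left out, Stat3-203 ran from −3.14 to 2.63, Stat5a-201 from −3.40 to 8.41, Stat5a-202 from −9.54 to 5.94, Stat5a-203 from −5.09 to 3.13 and Cish-204 from −2.64 to 3.09. The cause of these changes was not tested. The deviations of samples with the same replicate number from their group means had correlations of −0.42, 0.21 and −0.31 over 9043 genes. The 2 samples that stood apart enter these with different replicate numbers. The correlations therefore cannot decide whether equal numbers share an animal or day. With the replicate block 0 genes and 0 members passed. Each of the 9 genes had 533 or more counts in every library, while transcript counts such as those of Stat5a-202 varied far more between replicates.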
